A study of Mus musculus with 8 samples.

Results

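The genes described here are the chaperones of the endoplasmic reticulum (ER) and the unfolded protein response, a set of 33 genes chosen by symbol. They were found as the probes whose gene name on the array equals one of the 33 symbols. All 33 were on the array, with 65 probes, of which 61 were bright enough to test, and each of the 33 was tested among 17565 genes in all. By role they were 10 chaperones and cochaperones, 6 lectin chaperones and disulfide isomerases, 9 factors of ER-associated degradation (ERAD), 5 stress sensors and transcription factors, and 3 proteins of the translocon and the ER membrane.

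The ER folds the proteins that a hepatocyte secretes, among them albumin, clotting factors and apolipoproteins. When unfolded chains accumulate, the sensors IRE1, PERK and ATF6 are released from the chaperone BiP. They lower the load of new chains and switch on genes for chaperones, for disulfide exchange and for ERAD, which sends misfolded proteins back to the cytosol for destruction. In acetaminophen injury, a reactive metabolite of the drug binds hepatocyte proteins, and ER stress markers are known to respond in mouse liver.

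Total RNA was measured in livers of 80-week male mice (n = 4) and of 8-week male mice (n = 4), all taken 8 h after acetaminophen, a painkiller that injures the liver at high dose. Both ages had received the drug. Livers without it were not analysed here, and an age difference already there at rest and one in the response to the drug cannot be told apart. Nothing in the sources used here gives the dose, the strain or whether the arrays are of separate animals. The p-values therefore rest on how far these samples spread, and that spread may be technical. RNA came from whole liver, in which fewer cells of a type and less RNA per cell cannot be told apart.

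Each sample was read on 1 single-colour array, and all 8 arrays lay on 1 slide read in 1 scan. Each age filled a row of its own on that slide, and the effects of row and age cannot be told apart. Same-numbered arrays of both ages shared a column of the slide, and with that number as a block 0 of the 33 genes passed (lowest adjusted p = 0.160 by limma), while 17 genes of the whole array passed as lower in place of 5. Between 24538 and 28536 probes per array (43.3% to 50.4%) were well above background and no spot was saturated. The number of arrays limits the precision. Over all tested genes the first principal component (49.1% of the variance) placed 8-week replicates 1 and 2 at -61.3 and -99.2, away from the other 6 arrays, at 10.2 to 47.5. Results on the 33 genes are therefore given with all 8 arrays and again without these 2. All 10 hepatocyte markers examined were tested, and their summed linear signal, in multiples of each array's 75th percentile, ran from 3553 to 5459 in 80-week and from 2344 to 5031 in 8-week livers, lowest in 8-week replicate 2.

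A level below is a log2 intensity minus the 75th percentile of its own array, and a difference is the 80-week mean minus the 8-week mean, so a negative difference means a lower level in 80-week livers. Adjusted p-values are from limma with Benjamini-Hochberg adjustment over the 17565 genes, with a threshold of 0.05.

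None of the 33 genes passed the threshold, and the lowest adjusted p by limma was 0.215, for Ern1. Over the whole array 0.359% of the genes passed, 0.330% as higher and 0.0285% as lower in 80-week livers. At an unadjusted p under 0.05, 3 of the 33 were lower in 80-week livers (Ern1, Hyou1 and Xbp1) and 0 were higher, where 6.14% and 7.91% of all genes were. With array weights, which gave 8-week replicates 1 and 2 the lowest weights of the 8 arrays (0.44 and 0.18), 16 of the 33 were lower at that threshold by limma and 0 were higher, where 7.74% and 7.31% of all genes were. The difference was negative for 25 of the 33, against 48.0% of all genes, and with array weights for 29 of the 33, against 55.8%. The median difference over the 33 was -0.17, and over all tested genes it was 0.02. With each gene read from its brightest tested probe, the ages did not overlap for 1 of the 33, Hyou1, which was lower on all 4 80-week arrays. Of all genes, 3.76% were non-overlapping and lower, and 4.62% non-overlapping and higher.

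**Figure D1:**
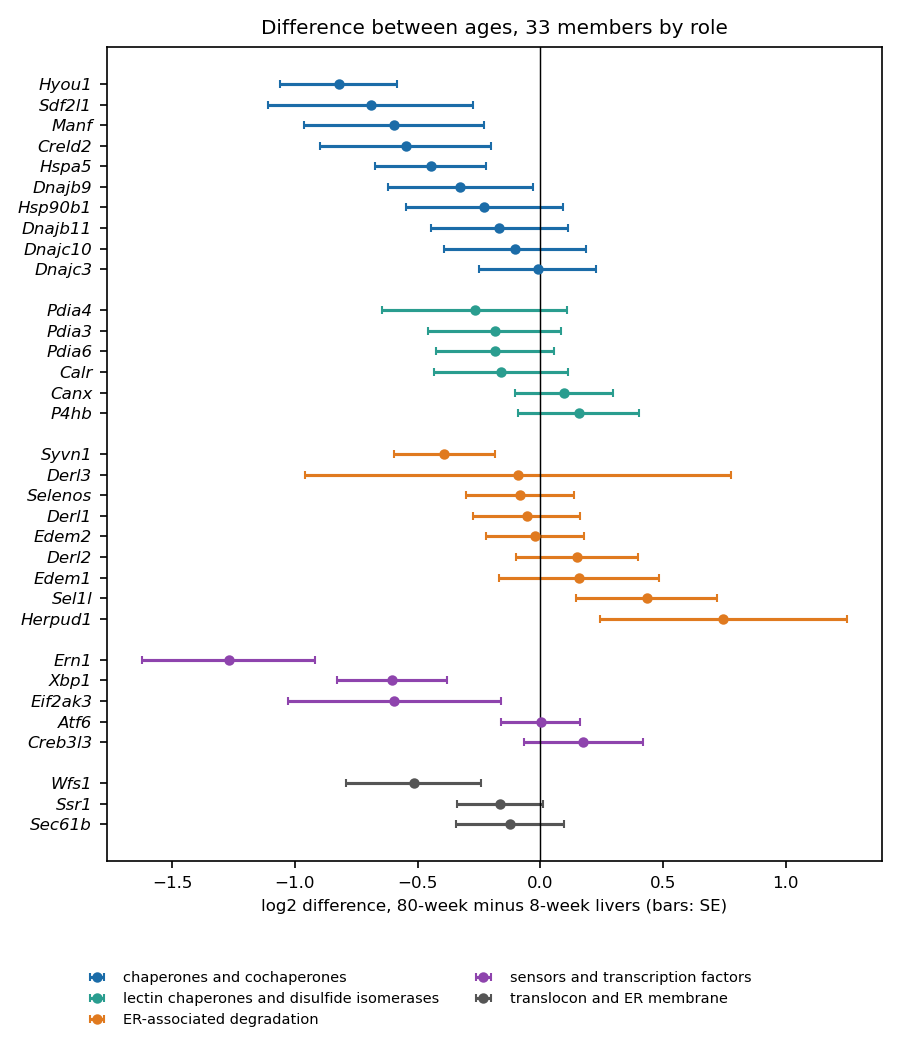
Log2 difference, 80-week minus 8-week, with its SE (bars) for each of the 33 genes, grouped by role in colour and ordered within each role. All 10 chaperones and cochaperones lie left of 0, the ERAD genes lie on both sides, and Ern1 lies furthest left at -1.27.

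Chaperones and cochaperones had a median difference of -0.39, and 10 of 10 were negative. Under the 21 alternatives 8 to 10 of them were negative, and the median stayed between -0.76 and -0.28. Hspa5 encodes BiP, the HSP70 of the ER lumen, which binds unfolded chains and holds the stress sensors inactive. Its level was 8.01, 8.42, 8.35 and 8.13 in 80-week livers, against 8.54, 8.21, 9.05 and 8.90 in 8-week livers (replicates 1 to 4 in each case). The 8-week arrays 3 and 4 were the highest, and 8-week array 2 lay inside the 80-week range. The means were 8.23 ± 0.19 in 80-week and 8.67 ± 0.37 in 8-week livers (SD, n = 4 each), a difference of -0.45 (SE 0.23, adjusted p = 0.393 by limma). The 3 probes of Hspa5, on chromosome 2 of build mm9, gave -0.45, -0.47 and -0.48. The chosen probe lies at 34631913 to 34631972 on the plus strand.

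Hyou1 encodes a large HSP70-like protein that exchanges nucleotide on BiP. Its level was -1.0, -1.36, -1.22 and -0.91 in 80-week livers, against -0.74, -0.55, 0.13 and -0.04 in 8-week livers. On this probe every 80-week array lay below every 8-week array, with the narrowest gap between 80-week replicate 4 and 8-week replicate 1. The difference was -0.82 (SE 0.24, unadjusted p = 0.00676, adjusted p = 0.232 by limma), a ratio of 0.566. The 2 other tested probes of Hyou1 gave -0.56 and -0.43 and overlapped between the ages, as did the average over its tested probes (-0.61), and a probe too dim to test was above background on 0 80-week and 3 8-week arrays. With array weights the difference of Hyou1 was -1.13 and it passed the threshold (adjusted p = 0.0261 by limma), the 1 member to do so. Under those weights 0.979% of all genes passed, 0.774% as higher and 0.205% as lower. Over its 21 alternatives the adjusted p of Hyou1 ran from 0.0261 to 0.548.

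Sdf2l1, Creld2 and Manf encode small soluble proteins of the ER lumen that are induced together in ER stress. Creld2 had levels of 6.06, 5.59, 6.19 and 6.08 in 80-week livers, against 5.71, 6.15, 7.39 and 6.86 in 8-week livers. Manf, a BiP cofactor that is also secreted, had levels of 3.98, 3.38, 4.24 and 4.69 in 80-week livers, against 3.92, 4.36, 5.30 and 5.08 in 8-week livers. Sdf2l1, a partner of the HSP40-type cochaperones, had levels of 1.73, 0.90, 1.84 and 2.47 in 80-week livers, against 1.65, 1.95, 3.07 and 3.03 in 8-week livers. In all 3 genes the 2 highest values were those of 8-week replicates 3 and 4, while 8-week replicates 1 and 2 lay inside the 80-week range. Differences were -0.55 for Creld2 (SE 0.35), -0.60 for Manf (SE 0.37) and -0.69 for Sdf2l1 (SE 0.42), with adjusted p-values of 0.475, 0.464 and 0.455 by limma. Across the 8 arrays these 3 varied together, with r = 0.99 between Manf and Sdf2l1, 0.92 between Creld2 and Manf and 0.90 between Creld2 and Sdf2l1.

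Hsp90b1 encodes GRP94, the HSP90 of the ER. It had levels of 7.73, 7.20, 7.33 and 7.54 in 80-week livers, against 7.30, 6.97, 8.43 and 8.02 in 8-week livers. The 8-week arrays held both the 2 highest values and the lowest, and the difference was -0.23 (SE 0.32). Without 8-week replicate 3 it was 0.02. The 4 HSP40-type cochaperones, which hand clients to BiP, differed by -0.33 for Dnajb9 (SE 0.30), -0.17 for Dnajb11 (SE 0.28), -0.10 for Dnajc10 (SE 0.29) and -0.01 for Dnajc3 (SE 0.24). For 3 of these 4 the difference was smaller than its SE. A dimmer tested probe of Dnajb11 gave 0.42, and the average over its tested probes was -0.01. Dnajb9, which brings BiP to IRE1, ran from 3.67 to 4.99 in 80-week livers and from 4.46 to 4.93 in 8-week livers, with 80-week replicate 1 the lowest of all. Dnajb11 ran from 3.91 to 4.46 in 80-week livers and from 3.83 to 4.88 in 8-week livers, and Dnajc3 from 2.13 to 2.79 in 80-week livers and from 2.11 to 2.83 in 8-week livers, so the 8-week range was the wider one in both. Dnajc10, which also reduces disulfide bonds, was highest in 8-week replicate 2, at 1.74, while the other 7 arrays lay between 0.49 and 1.57.

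**Figure D2:**
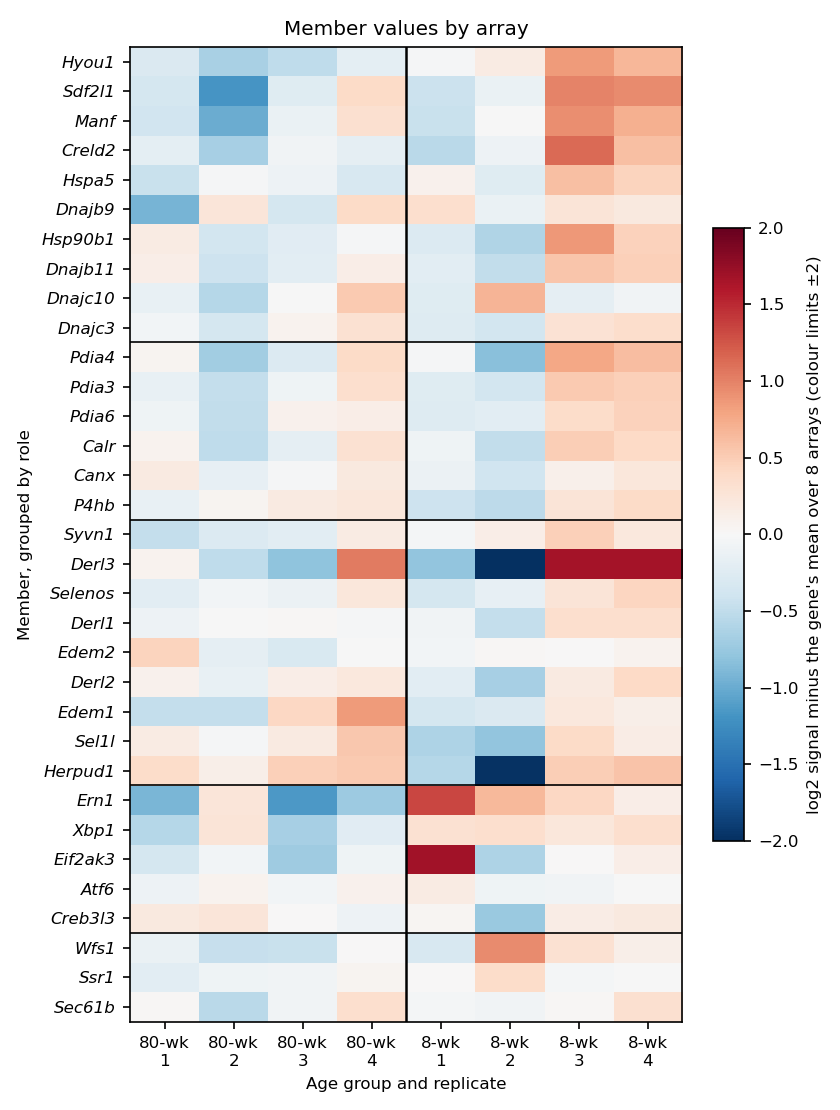
Level of each of the 33 genes on each array, as log2 signal minus that gene's mean over the 8 arrays (colour, limited to 2 either way), with 80-week replicates left and 8-week replicates right of the vertical line. The 8-week replicates 3 and 4 are the reddest columns for chaperones and disulfide isomerases, and Herpud1 and Derl3 are darkest blue in 8-week replicate 2.

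Many ER chaperone genes carry the ER stress response element (ERSE) before their start site, which ATF6, with the CCAAT-binding factor NF-Y, and XBP1 are known to bind. The element was searched as CCAAT, 9 bases of any kind and CCACG. A shorter form, ERSE-II, was searched as ATTGG, 1 base and CCACG. Windows of 300 bases, 250 before and 50 after each RefSeq start site in build GRCm38.p6, were available for 29 of the 33 genes, and both strands were searched. ERSE was found in 9 genes (Hspa5, Hsp90b1, Dnajc3, Creld2, Calr, Canx, Pdia6, Syvn1 and Derl3) and ERSE-II in Herpud1 and Dnajb11. The 29 genes had 31 windows, of which 9 held ERSE and 2 held ERSE-II. Of all 32851 windows in the table, 0.119% held ERSE and 0.0365% held ERSE-II. The elements were chosen from prior knowledge of ATF6 and XBP1, and ER chaperone genes were already known to carry ERSE. The contrast with all windows is therefore not a test. The core of another element, UPRE, written TGACGTGG, was found in 0 of the 29 and in 0.676% of all windows. Only this exact spelling was searched, so variant forms of UPRE were not counted. A match is a description of these letters and not evidence of binding. The windows below are shown because they carry the elements, with both conserved ends of each element in capitals, for Hspa5 over the 250 bases before the start site and for the others with 20 bases on each side. Each is written 5′ to 3′ on the strand of its gene.
Hspa5 (chr2:34771840-34772089, plus strand): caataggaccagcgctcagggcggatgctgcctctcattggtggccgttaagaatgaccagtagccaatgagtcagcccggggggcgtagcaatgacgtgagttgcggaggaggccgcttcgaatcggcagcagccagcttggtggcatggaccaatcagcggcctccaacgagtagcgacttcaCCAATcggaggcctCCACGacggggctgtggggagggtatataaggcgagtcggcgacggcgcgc
Hsp90b1 (chr10:86705618-86705676, minus strand): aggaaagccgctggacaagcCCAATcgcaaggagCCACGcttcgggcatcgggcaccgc
Creld2 (chr15:88819500-88819558, plus strand): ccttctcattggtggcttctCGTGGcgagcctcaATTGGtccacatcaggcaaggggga
Pdia6 (chr12:17266471-17266529, plus strand): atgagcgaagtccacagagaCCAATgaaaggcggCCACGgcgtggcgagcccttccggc
Syvn1 (chr19:6046512-6046570, plus strand): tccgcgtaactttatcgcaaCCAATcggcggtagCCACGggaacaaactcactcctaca
Derl3 (chr10:75893222-75893280, plus strand): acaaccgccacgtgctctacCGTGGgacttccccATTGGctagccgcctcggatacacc
Herpud1 (chr8:94386357-94386407, plus strand): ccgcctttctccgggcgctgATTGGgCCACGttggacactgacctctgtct

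In Hspa5 the element in capitals lies at -65 to -47, counted back from the base before the start site. In Hsp90b1 the forward copy lies at -212 to -194, and a second, reversed copy at -107 to -89. The element is forward in Pdia6 (-98 to -80) and Syvn1 (-44 to -26) and reversed in Creld2 (-126 to -108) and Derl3 (-156 to -138), where it reads CGTGG, 9 bases and ATTGG. The ERSE-II of Herpud1 lies at -52 to -42. The 11 genes with either element had a median difference of -0.17, with 9 of 11 negative, and the 18 matched genes with neither had a median of -0.14, with 13 of 18 negative. Without 8-week replicates 1 and 2 the medians were -0.54, with 11 of 11 negative, and -0.30, with 17 of 18 negative. No test was made of either contrast.

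Lectin chaperones and disulfide isomerases had a median difference of -0.17, with 4 of 6 negative, and none reached an unadjusted p under 0.05. With 1 array left out the median ran from -0.31 (without 8-week replicate 2) to -0.03 (without 8-week replicate 3 or 80-week replicate 2). Calr and Canx encode calreticulin and calnexin, which hold glycoproteins through their trimmed sugars. Calr had levels of 5.47, 4.89, 5.22 and 5.71 in 80-week livers, against 5.32, 4.92, 5.90 and 5.79 in 8-week livers. Canx had levels of 6.15, 5.81, 5.95 and 6.16 in 80-week livers, against 5.85, 5.57, 6.07 and 6.20 in 8-week livers. The ranges of the ages overlapped in both genes, with differences of -0.16 (SE 0.27) and 0.10 (SE 0.20). The sign for Canx turned under median scaling (-0.01), with array weights (-0.10) and without 8-week replicate 2 (-0.02).

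The disulfide isomerases make and shuffle disulfide bonds in folding chains. Pdia4 differed by -0.27 (SE 0.38), with levels of 2.03, 1.27, 1.69 and 2.35 in 80-week livers, against 1.95, 1.13, 2.74 and 2.59 in 8-week livers. Pdia3, which works with the lectin chaperones, differed by -0.19 (SE 0.27), and Pdia6 by -0.18 (SE 0.24). Pdia3 ran from 4.23 to 5.03 in 80-week livers and from 4.34 to 5.22 in 8-week livers, and Pdia6 from 6.81 to 7.44 in 80-week livers and from 7.05 to 7.77 in 8-week livers. P4hb, the founding member of the family, differed by 0.16 (SE 0.25). Its sign turned when its 2 probes were averaged (-0.03) and with array weights (-0.12). The second of these probes was dim (mean level -2.73 in 80-week and -2.51 in 8-week livers) and had no genome position. It was above background on 3 of the 4 80-week arrays. In all 6 genes of this role the highest array was 8-week replicate 3 or 4, and the lowest was 80-week replicate 2 or 8-week replicate 2. The share of all genes with these extremes was not taken. Across the 8 arrays the median r was 0.84 over the 15 gene pairs of this role. It was 0.66 over 45 pairs of chaperones, 0.54 over 36 pairs of ERAD genes and 0.38 over 10 pairs of sensors. A median over pairs of all genes was not taken. Paired with Hspa5 alone, all genes had a median r of 0.08. The 6 lectin chaperones and isomerases paired with Hspa5 had r from 0.20 (Canx) to 0.57 (Pdia3). The pairs share the arrays and their scaling.

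ERAD genes had a median difference of -0.02, with 5 of 9 negative, and none reached an unadjusted p under 0.05. That median was 0.03 with normexp background, 0.23 without 8-week replicate 3 and 0.22 without 8-week replicate 4, so it had no settled sign. Herpud1, a membrane protein that assembles the ERAD complex, had levels of 7.49, 7.25, 7.60 and 7.65 in 80-week livers, against 6.55, 5.15, 7.61 and 7.70 in 8-week livers. The SD was 0.18 among 80-week and 1.19 among 8-week livers, and 8-week replicates 1 and 2 were the only arrays below the 80-week range. The difference was 0.75 (SE 0.50, adjusted p = 0.499 by limma). Without 8-week replicates 1 and 2 it was -0.16.

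Sel1l, the adaptor that holds the ubiquitin ligase complex together, showed the same 2 low arrays, with levels of 4.44, 4.25, 4.45 and 4.81 in 80-week livers, against 3.66, 3.49, 4.65 and 4.42 in 8-week livers. Its difference was 0.43 (SE 0.29, adjusted p = 0.495 by limma), and -0.05 without those 2 arrays. A dim probe of Sel1l differed in sign (-0.21). Derl3, a derlin of the retrotranslocation channel that is abundant in secretory cells, had levels of 1.79, 1.22, 0.92 and 2.76 in 80-week livers, against 0.93, -0.65, 3.39 and 3.39 in 8-week livers. Its 8-week arrays held both the highest and the lowest values of all 8, with an SD of 0.81 in 80-week and 1.98 in 8-week livers, so its difference of -0.09 had an SE of 0.87. Across the 8 arrays Herpud1 had r = 0.91 with Sel1l and 0.81 with Derl3.

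Markers of other secretory cells were read beside Derl3. Of 8 plasma cell markers 4 were tested, and their summed linear signal was 17.3 to 19.7 in 80-week livers, and in 8-week replicates 1 to 4 it was 8.84, 5.85, 17.4 and 18.5. Cd79a, Irf4 and Tnfrsf17 were above background on no array, and most of the sum was Sdc1, which epithelial cells also express. Jchain, which joins polymeric immunoglobulins, was higher in 80-week livers (adjusted p = 0.0127 by limma). However, it was above background on all 4 80-week and only 1 of the 4 8-week arrays, so no size is given. Jchain passed the threshold under 19 of the 20 alternatives in which it was tested. The exception was without 8-week replicates 1 and 2, where its adjusted p was 0.112 by limma. Of 8 pancreatic acinar markers 5 were tested, with a sum of 32.0 to 36.9 in 80-week and 10.8 to 24.1 in 8-week livers, mostly Cela1, while Cpa1 and Prss1 were above background on no array. The part of these cells in the values of Derl3 was not tested. Sums of the other marker lists overlapped between the ages, with neutrophil markers (7 of 8 tested) at 121 to 264 in 80-week and 180 to 253 in 8-week livers, and monocyte and macrophage markers (8 of 9) at 120.0 to 356 in 80-week and 125 to 220 in 8-week livers. Endothelial and stellate markers (8 of 8) summed to 47.3 to 72.4 in 80-week and 67.6 to 70.6 in 8-week livers, and cholangiocyte markers (2 of 5) to 8.26 to 15.9 in 80-week and 9.92 to 26.7 in 8-week livers. Such sums weigh the brightest genes most. Of the 8 endothelial and stellate markers, 1 was non-overlapping and higher and 2 non-overlapping and lower (4.62% and 3.76% of all genes). Of the 10 hepatocyte markers 1 was non-overlapping and higher. No neutrophil, monocyte and macrophage or cholangiocyte marker was non-overlapping.

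Syvn1 encodes HRD1, the ubiquitin ligase of ERAD. It had levels of 5.77, 5.97, 6.04 and 6.41 in 80-week livers, against 6.20, 6.38, 6.73 and 6.45 in 8-week livers, and only 80-week replicate 4 reached into the 8-week range. Its difference was -0.39 (SE 0.21, adjusted p = 0.406 by limma). The other 5 ERAD genes differed by at most 0.16 in size, each by less than 1 SE. These were Edem1 (0.16) and Edem2 (-0.02), which trim mannose from misfolded glycoproteins, the derlins Derl1 (-0.06) and Derl2 (0.15), and Selenos (-0.08), a selenoprotein of the same complex. Signs of this size turned under at least 1 alternative in all 5. A dimmer tested probe gave -0.08 for Edem1 and 0.009 for Edem2, opposite in sign to the chosen probe in each. Derl1 ran from 4.33 to 4.46 in 80-week livers and from 3.96 to 4.77 in 8-week livers, and Derl2 from 5.73 to 6.09 in 80-week livers and from 5.21 to 6.27 in 8-week livers, in both cases lowest in 8-week replicate 2. Edem1 was highest in 80-week replicate 4, at 2.81, and its other 80-week values were 1.49, 1.48 and 2.37, against 1.61 to 2.17 in 8-week livers.

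**Figure D3:**
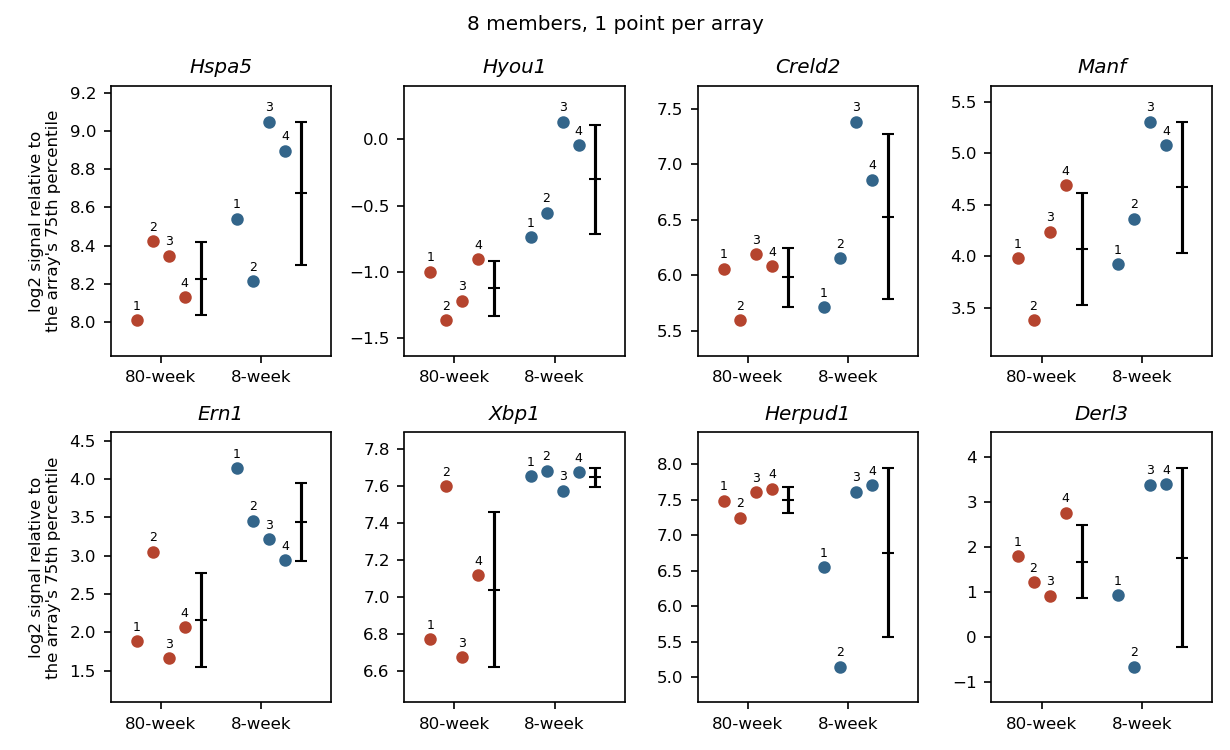
Levels of 8 genes, 1 numbered point per array, in 80-week (left) and 8-week livers (right), with the mean and SD of each group as bars. In Hspa5, Hyou1, Creld2 and Manf the 8-week replicates 3 and 4 are the highest arrays, in Ern1 and Xbp1 3 of the 4 80-week arrays lie below the 8-week arrays, and in Herpud1 and Derl3 the 8-week replicate 2 is the lowest array.

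Sensors and transcription factors did not share 1 pattern, with a median difference of -0.60, 3 of 5 negative and values from -1.27 to 0.17. Ern1 encodes IRE1, the kinase and nuclease that splices Xbp1 RNA. Its level was 1.88, 3.05, 1.66 and 2.07 in 80-week livers, against 4.14, 3.45, 3.22 and 2.94 in 8-week livers. Of the 4 80-week arrays, 3 lay below every 8-week array, and 80-week replicate 2 lay above 8-week replicate 4. The difference was -1.27 (SE 0.35, unadjusted p = 0.00531, adjusted p = 0.215 by limma), a ratio of 0.414. The array held 5 tested probes for Ern1, all on chromosome 11 of build mm9, and they disagreed. The brightest, at 106255965 to 106256024, gave -1.27, the next brightest gave -0.82, and the 3 dimmer ones gave -0.19, -0.08 and 0.38. The probe at -0.08 was above background on 2 80-week and 2 8-week arrays, and the probe at 0.38 on 4 80-week and 2 8-week arrays. Averaged over its probes, all weighted alike, Ern1 differed by -0.40 (adjusted p = 0.616 by limma). Over the 21 alternatives its adjusted p ran from 0.105 to 0.616.

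Xbp1 encodes the transcription factor made from the RNA that IRE1 splices, and the probes do not tell the spliced from the unspliced RNA. It had levels of 6.77, 7.60, 6.67 and 7.12 in 80-week livers, against 7.65, 7.68, 7.57 and 7.67 in 8-week livers. The SD was 0.42 among 80-week and 0.05 among 8-week arrays, and 3 of the 80-week arrays lay below all of them. The difference was -0.61 (SE 0.23, unadjusted p = 0.0240, adjusted p = 0.306 by limma), and the other 2 probes gave -0.83 each. Xbp1 and Ern1 had r = 0.90 across the 8 arrays, and both were highest among 80-week livers in replicate 2. In both genes 8-week replicates 1 and 2 lay among or above 8-week replicates 3 and 4, whereas in Creld2, Manf and Sdf2l1 they lay below them.

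Eif2ak3 encodes PERK, the kinase that slows translation in ER stress. It had levels of 1.72, 2.02, 1.37 and 1.99 in 80-week livers, against 3.75, 1.46, 2.08 and 2.21 in 8-week livers. The value of 8-week replicate 1 stood above all others, and the difference of -0.60 (SE 0.43, adjusted p = 0.529 by limma) became -0.14 without that array. A dimmer tested probe of Eif2ak3 ran from -0.67 to -0.43 in 80-week livers and from -0.29 to 1.51 in 8-week livers, with no overlap and a difference of -0.97 (SE 0.36, adjusted p = 0.304 by limma over all tested probes). Averaged over both probes the ages did not overlap either, and the difference was -0.78 (adjusted p = 0.374 by limma). Atf6, the sensor that is cut in the Golgi to release a transcription factor, differed by 0.00 (SE 0.16, adjusted p = 0.997 by limma). Its levels were 2.36, 2.53, 2.40 and 2.54 in 80-week livers, against 2.62, 2.37, 2.39 and 2.44 in 8-week livers, and its sign turned under 9 of 21 alternatives. Creb3l3, a liver transcription factor cut in the same way, had levels of 8.27, 8.32, 8.08 and 7.97 in 80-week livers, against 8.12, 7.33, 8.22 and 8.28 in 8-week livers. Its difference was 0.17 (SE 0.24), and -0.05 without 8-week replicate 2, the lowest array.

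The 3 genes of the translocon and the ER membrane were all negative, with a median difference of -0.17. Wfs1, an ER membrane protein named for Wolfram syndrome, had levels of 0.73, 0.39, 0.42 and 0.86 in 80-week livers, against 0.53, 1.80, 1.16 and 0.97 in 8-week livers, a difference of -0.52 (SE 0.28, adjusted p = 0.412 by limma). Only 8-week replicate 1 lay inside the 80-week range. Ssr1, a subunit of the translocon-associated complex, differed by -0.17 (SE 0.18), with levels of 4.40 to 4.67 in 80-week and 4.57 to 4.99 in 8-week livers, and Sec61b, a subunit of the channel itself, by -0.12 (SE 0.22).

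Set side by side, the medians were -0.39 for chaperones, -0.17 for lectin chaperones and isomerases, -0.02 for ERAD genes and -0.60 for sensors, the last over 5 genes. Without 8-week replicate 1 the sensor median was -0.14, against -0.42 for chaperones. Which array was high also differed by role. Averaged over the genes of a role after centring each gene on its mean, chaperones stood at -0.25, -0.50, -0.18 and 0.13 in 80-week livers, against -0.20, -0.12, 0.63 and 0.48 in 8-week livers. ERAD genes stood at -0.01, -0.17, -0.02 and 0.40 in 80-week livers, against -0.34, -0.73, 0.45 and 0.44 in 8-week livers. Sensors stood at -0.35, 0.15, -0.51 and -0.21 in 80-week livers, against 0.71, -0.09, 0.15 and 0.16 in 8-week livers. For chaperones and ERAD genes the 2 highest of the 8 arrays were 8-week replicates 3 and 4, and for sensors the highest was 8-week replicate 1. Over all 33 genes, 8-week replicate 3 was the highest array for 12 and 8-week replicate 4 for 8, whereas 8-week replicate 2 was the lowest for 12 and 80-week replicate 2 for 11. The matching shares of all genes were not taken, and these counts are not read as a result on the 33 genes.

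Without 8-week replicates 1 and 2, which leaves 4 80-week and 2 8-week arrays, 31 of the 33 differences were negative, where 57.5% of all genes were. None of the 33 passed the threshold, against 0.0797% of all genes (0.0683% as higher and 0.0114% as lower), and the lowest adjusted p by limma was 0.172, for Hyou1 at -1.17. At an unadjusted p under 0.05, 12 of the 33 were lower, where 4.75% of all genes were, and 0 were higher (4.27%). The ages did not overlap for 18 of the 33, all lower. With so few arrays 14.1% of all genes were non-overlapping and lower, and 7.89% non-overlapping and higher. The median difference was -0.39 over the 33, against -0.06 over all genes. By role it was -0.76 for chaperones, -0.52 for lectin chaperones and isomerases, -0.22 for ERAD genes, -0.37 for sensors and -0.23 for the translocon. Single genes stood at -1.71 for Derl3, -1.32 for Sdf2l1, -1.14 for Creld2, -1.12 for Manf and -0.74 for Hspa5. Ern1 stood at -0.91, closer to 0 than with all 8 arrays. These 2 arrays also stood apart over all genes, and the part of that separation in the values of the 33 genes was not tested.

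**Figure D4:**
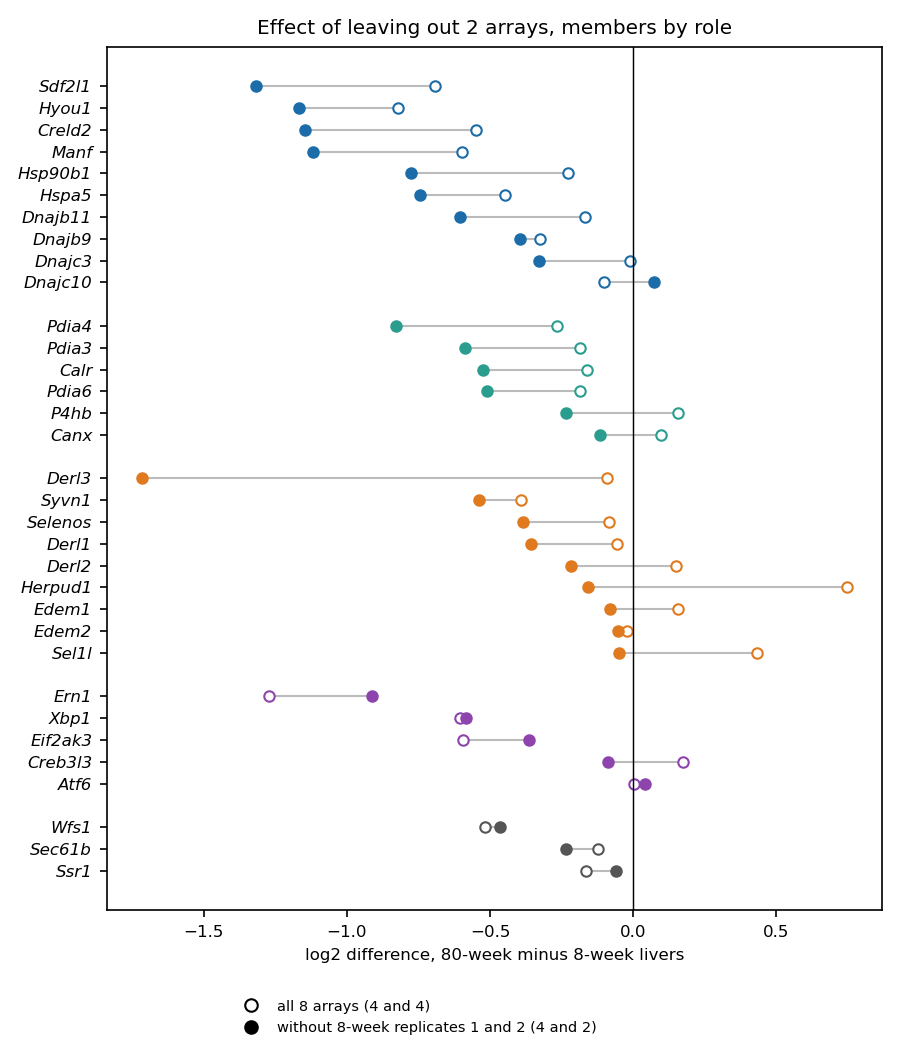
Log2 difference, 80-week minus 8-week, of each of the 33 genes over all 8 arrays (open circles) and without 8-week replicates 1 and 2 (filled circles), grouped by role. Most filled circles lie left of their open circle, Derl3 stands at -1.71 without the 2 arrays and -0.09 with them, and Ern1 lies right of its open circle, at -0.91.

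Other genes of the ER folding system were read from lists of the same fit. Of 28 other ER folding factors tested, 0 passed in either direction, with a median difference of 0.05. The 2 with the smallest p were Tmx2, a membrane thioredoxin, at 0.42 (adjusted p = 0.352 by limma) and Fkbp7, a prolyl isomerase, at 0.65 (0.384). Of 22 other ERAD factors 0 passed, with a median of 0.08, among them Ube2j1, the ubiquitin-conjugating enzyme of ERAD, at -0.50 (0.302) and the ligase gene Marchf6 at 0.81 (0.306). Of 30 genes of the translocon, signal peptidase and oligosaccharyltransferase 0 passed, with a median of -0.01, among them Ostc at -0.67 (0.316) and Sec11c at 0.55 (0.353). Over all genes the median was 0.02. Without 8-week replicates 1 and 2 the medians of these 3 lists were -0.12 (23 of 28 negative), -0.11 (14 of 22) and -0.17 (24 of 30), against -0.06 over all genes.

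Downstream of the sensors, 0 of 21 tested genes of the PERK branch and integrated stress response passed, with a median difference of 0.01. Asns, the asparagine synthetase that ATF4 controls, had levels of 0.09, 2.11, -1.56 and -0.41 in 80-week livers, against 2.49, 2.74, 2.62 and 2.30 in 8-week livers. Its arrays did not overlap between the ages, and the difference was -2.48 (SE 0.63, adjusted p = 0.173 by limma). Without 80-week replicate 2, the highest of its group, Asns passed the threshold (adjusted p = 0.0149), and over the 21 alternatives its adjusted p ran up to 0.517. Chac1, another ATF4 target, which degrades glutathione, differed by 1.49 (SE 0.52, adjusted p = 0.294 by limma). Of 14 tested partners of the IRE1 and ATF6 branches 0 passed, with a median of -0.03. Atf6b, the paralog of Atf6, had a difference of -0.72 (adjusted p = 0.252 by limma), with no overlap between the ages, and Tmbim6, an IRE1 inhibitor, had a difference of 0.62 (0.334).

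The heat shock genes, chaperones outside the ER under another transcription factor, HSF1, had a median difference of -0.76, against 0.02 over all genes. Negative differences were seen in 17 of 19, against 48.0% of all genes. At an unadjusted p under 0.05 by limma, 12 were lower and 0 higher, where 6.14% and 7.91% of all genes were. The ages did not overlap for 8, all lower, against 3.76% of all genes. Of the 19, 1 passed the threshold as lower and 0 as higher, where 0.0285% and 0.330% of all genes did. It was Hspa1b, an inducible HSP70 gene, at -5.50 (SE 0.81, adjusted p = 0.0241 by limma), whose probes may also read its near-identical copy Hspa1a. Hspa1b passed under 15 of 21 alternatives and with 3 of the 8 arrays left out singly, and without 8-week replicates 1 and 2 its adjusted p was 0.168. The next, Hsph1, differed by -1.58 (adjusted p = 0.0559 by limma).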

How the data were processed

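Single-colour Agilent arrays measured total RNA in 8 livers, grouped by the labelled age. Per the file headers, the deposited spot intensity values had been background-corrected by Feature Extraction 10.7.3.1. The submitters' processing notes name version 9.1 of that software. The authors' deposited intensity table held the same signal, within 1% for 100% of 56605 probes, and 0 columns of other samples. It served as an alternative only. Its column medians ran from 14.2 to 28.1.

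Outlier spots, 59 to 97 per array, were dropped, spots of a probe were averaged as log2, and each array's 75th percentile over non-control probes (154.7 to 352.8 intensity units) was subtracted. A probe was tested if well above background on 4 or more of the 8 arrays, and a gene was read from the brightest such probe. The fit used lmFit and eBayes of limma 3.58.1 (R 4.3.3) over all 17565 genes, after a test on simulated data. Probes are placed on mm9 by the array files. Promoter windows are RefSeq's (GRCm38.p6), matched by symbol.

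The 33 genes, the lists of other genes and the choices of analysis were made with earlier results of these data known. Named genes are all 33, the genes past the threshold and the 2 smallest p of each list of other ER genes, and the most abundant or called markers. Sums over markers are of linear signals. Alternatives changed the background (normexp with an offset of 50), the scaling (quantile or median), the filter on dim signal (none, or all 8 arrays), the probe rule (averaged), the variance prior (trended and robust), and outlier spots (kept). Others used array weights, a block for the replicate number or the authors' table, or left out each array in turn, or 8-week replicates 1 and 2 together.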

Additional observations from a re-analysis of the deposited data

Results flagged for a closer look

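In 2 of the 66 groups of 4 values examined (3.03%), 1 array lay far from the other 3, where chance gives about 1 in 20. Both were 8-week replicate 2. For Creb3l3, a liver transcription factor of the ER membrane, that array had a level of 7.33 while the other 8-week arrays lay between 8.12 and 8.28. For Ssr1, a subunit of the translocon-associated complex, it had a level of 4.99 while the others lay between 4.57 and 4.62, so it was low for one gene and high for the other. A pair of arrays apart from the rest, as seen over all genes, would not be found in this way.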

How the results depend on the processing

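The replicate number as a block moved no gene of the 33 past the threshold (lowest adjusted p = 0.160 by limma), but gave 17 genes lower over the whole array in place of 5. Each number has an array of each age, so the block leaves every difference as it was. That 25 of the 33 stayed negative was therefore fixed by the design. Same-numbered arrays deviated with correlations of 0.026, 0.141, 0.114 and 0.104, and 2 of the 4 matched best with their own number, so the numbers were not taken to pair the arrays. Same-numbered arrays share a slide column, whose part in these correlations was not tested.

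Over the whole array the counts were 58 higher and 5 lower. Of these, the higher count was 20 with signal required on all 8 arrays, 136 with array weights and 12 without 8-week replicates 1 and 2. The lower count was 8 with quantile scaling, 13 with median scaling, 8 with no filter, 1 with signal on all 8 arrays, 9 with averaged probes, 8 with the trended prior, 36 with array weights and 2 without those 2 arrays. Leaving out 1 array gave 25 to 69 higher and 2 to 14 lower. Median scaling moved the median of all genes by -0.10, and no filter moved it by 0.17.

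Of the 33 genes, 0 passed under any alternative except array weights, where 1 did, Hyou1. Non-overlapping lower genes numbered 2 with quantile scaling (with or without normexp), median scaling and averaged probes, and 1 to 3 with 1 array left out. With averaged probes they were Eif2ak3 and Ssr1, and Hyou1 overlapped. The share of all genes was not taken under these settings, and the counts are not read as a result on the 33 genes. Without 8-week replicates 1 and 2 the number was 18, where 14.1% of all genes were non-overlapping and lower. The chaperone median was -0.76 without those 2 arrays and -0.53 to -0.28 with 1 array left out. The sensor median was -0.14 without 8-week replicate 1, in a range of -0.68 to -0.14. With 1 array left out, 0 to 1 genes of the lists of other ER genes passed, the 1 being Asns. For heat shock genes the count was 0 to 2, and it was 2 with median scaling, averaged probes, the trended prior or array weights and 0 without 8-week replicates 1 and 2. The cause was not tested for any of these.

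Under all 21 alternatives the sign was kept for 17 of the 33 genes, and 47 of 693 values reversed. The largest difference to reverse was that of Herpud1, at 0.75. Only Ern1 (-1.27) and Hyou1 (-0.82) had a larger difference in size. The trended prior and the replicate block leave each difference as it was, so they could not reverse a sign. The authors' table and the kept outlier spots hold nearly the same signal, and moved the median of all genes by -0.00068 and -3.7e-05. The counts of kept signs include these alternatives. With array weights 29 of the 33 were negative, 16 of them at an unadjusted p under 0.05, and the reversed values were 0.034 for Dnajc10, -0.099 for Canx, -0.12 for P4hb, -0.0035 for Edem1, -0.15 for Derl2 and -0.049 for Creb3l3. Without 8-week replicates 1 and 2 they were 0.071 for Dnajc10, -0.11 for Canx, -0.24 for P4hb, -0.16 for Herpud1, -0.082 for Edem1, -0.051 for Sel1l, -0.22 for Derl2 and -0.089 for Creb3l3. With median scaling they were -0.0073 for Canx and -0.10 for Atf6. With averaged probes it was -0.034 for P4hb. With normexp background with percentile scaling they were 0.031 for Edem2 and -0.0051 for Atf6. With normexp with quantile scaling it was -0.024 for Atf6. With quantile scaling it was -0.031 for Atf6. With 1 array left out, the values that crossed 0 ran over -0.47 to 0.022 for Hsp90b1, -0.14 to 0.10 for Dnajc3, -0.29 to 0.11 for Dnajc10, -0.020 to 0.19 for Canx, -0.10 to 0.34 for Edem1, -0.17 to 0.075 for Edem2, -0.22 to 0.044 for Selenos, -0.23 to 0.046 for Derl1, -0.050 to 0.31 for Derl2, -0.90 to 0.45 for Derl3, -0.027 to 0.057 for Atf6, -0.045 to 0.27 for Creb3l3 and -0.26 to 0.034 for Sec61b.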
